A study of Mus musculus with 4 samples.

Results

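The genes followed here mark epithelial or mesenchymal identity, and were read in a mouse tumour graft in which cancer cells, host gland epithelium and host fibroblasts lie side by side. The 10 members, of 32285 genes in the files, were taken by their symbols: the keratins Krt7, Krt8, Krt18 and Krt19, the adhesion proteins Epcam and Cdh1, and on the mesenchymal side Cdh2, Vim, Zeb1 and Snai2. All 10 symbols were found. The cells were read in 4 single-cell RNA libraries from subcutaneous tumours of Pan02, a mouse pancreatic cancer line, in female C57BL/6 mice of 6 to 7 weeks. The anti-PD-1 library came from mice treated with an antibody to PD-1, a checkpoint receptor of T cells, the anti-LIF library from mice given an antibody against the cytokine LIF, the combo library from mice given both, and the control library from mice given IgG alone. Per the labels the cells were injected into the flank, and treatment groups were formed once tumours measured some 50 mm3. Doses of 200 µg of anti-PD-1 and 25 mg/kg of IgG or anti-LIF were injected 3 times a week. The 25 mg/kg dose is recorded for all 4 libraries. For the anti-PD-1 library, whose treatment label names anti-PD-1 alone, it is read here as IgG. Each library pooled cells of 3 samples. A group is therefore 1 library, animals cannot be told apart, and no difference between libraries was tested. All groups share the grafted line and the host strain.

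Epithelial cells are held together by cell junctions in which E-cadherin, the product of Cdh1, is a main component, and their cytoskeleton is built of paired keratins such as Krt8 with Krt18. Mesenchymal cells carry vimentin (Vim) filaments and often N-cadherin (Cdh2) in their place. The transcription factors Zeb1 and Slug, the product of Snai2, bind E-box sequences and are best known for repressing Cdh1 and other epithelial genes during epithelial-mesenchymal transition, a change in which carcinoma cells lose epithelial and gain mesenchymal features in part or in full. EpCAM, the product of Epcam, is an adhesion protein of simple epithelia that is widely used to isolate carcinoma cells.

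The E-box read by Zeb1 and by the Snail family has the core CACCTG, or CAGGTG on the other strand. RefSeq promoters of build GRCm38.p6 were at hand for 5 of the 10 members (Krt7, Krt8, Krt18, Epcam and Vim). The Epcam and Krt18 windows are shown because these epithelial genes differed in the cancer cells: Krt18 RNA was well above background and Epcam RNA was not. Capitals mark each match to the core on either strand, and both windows end just before the first annotated base of the gene.
Epcam, chr17:87635729-87635978, plus strand: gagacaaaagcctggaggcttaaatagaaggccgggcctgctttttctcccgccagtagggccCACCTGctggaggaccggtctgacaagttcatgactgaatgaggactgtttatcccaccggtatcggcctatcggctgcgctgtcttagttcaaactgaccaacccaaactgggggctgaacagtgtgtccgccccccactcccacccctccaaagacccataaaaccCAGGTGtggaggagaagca
Krt18, chr15:102027966-102028179, plus strand: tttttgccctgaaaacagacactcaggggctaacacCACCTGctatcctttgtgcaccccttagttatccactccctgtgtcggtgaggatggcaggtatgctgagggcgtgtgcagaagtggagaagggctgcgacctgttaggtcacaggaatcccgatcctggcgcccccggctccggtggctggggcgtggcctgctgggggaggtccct
The Epcam window of 250 bases held 2 matches, 1 in each orientation, and the Krt18 window of 214 bases held 1. Of all 32851 promoters in the table, 17.2% held at least 1 match in a window of the Epcam length and 2.06% held 2 or more, and 15.2% held at least 1 in a window of the Krt18 length. A match describes letters only, and binding was not measured. Matches in the Krt7, Krt8 and Vim windows were not counted one by one, and no link of matches to RNA level was tested. In the GENCODE M21 annotation of the same build Krt18 (chr15:102028180-102032027, plus strand) and Krt8 (chr15:101996698-102004482, minus strand) are close neighbours pointing away from each other, and Krt7 lies on the same chromosome (chr15:101411043-101430313). Epcam is at chr17:87635979-87651129, Cdh1 at chr8:106603351-106670246, Krt19 at chr11:100140810-100148665, Vim at chr2:13573927-13582826 and Snai2 at chr16:14705852-14709385.

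Depth was sufficient to follow the abundant members cell by cell and the rare ones only as sums. The libraries held 15191 (anti-PD-1), 15046 (anti-LIF), 17472 (combo) and 20393 (control) barcodes, of which 91.4% to 94.7% were kept, 63443 cells in all. Any pair of libraries shared 277 to 392 barcodes, at most 2.27% of the smaller library. Cells were placed in classes by UMIs (unique molecular identifiers, counted RNA molecules) of marker genes that are not members. The cancer cell gate held 1606 anti-PD-1, 944 anti-LIF, 1165 combo and 4455 control cells, with median UMI counts of 11520, 10496.5, 17596 and 11796. The gland gate held 51, 132, 97 and 85 cells and the fibroblast gate 767, 2349, 2219 and 823 cells, in the same order. Xist is a transcript of the inactive X chromosome that host cells of female mice carry. It served as a check of the graft and was not used in the main gates. It stood at 1.35 to 2.26 CPM in gated cancer cells, against 208 to 253 in treated and 135 in control gland cells and 106 to 150 in fibroblasts. Gated cancer cells made up 11.2%, 6.74%, 7.10% and 23.9% of the kept cells, in the order of the libraries above, and in such shares fewer cells of a type and less RNA per cell cannot be told apart.

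In gated cancer cells, keratin and vimentin RNA were found together while Epcam RNA was all but missing. Levels are given as CPM (UMIs of the gene scaled to a class total of 1000000) with 95% exact Poisson intervals that cover counting error only. They are 3' counts that are not scaled to gene length, so levels are compared between cells and not between genes. T cells, which should lack keratins, were taken as the background, with median UMI counts of 1174 to 1582. Their UMIs were uneven: over the libraries 10 cells held 22.2% to 78.5% of the Krt18 and 55.1% to 86.7% of the Epcam UMIs. The libraries had 1089 to 6966 T cells, so these shares do not compare them. Whether these UMIs came from free RNA, doublets or the T cells themselves was not tested.

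**Figure D1:**
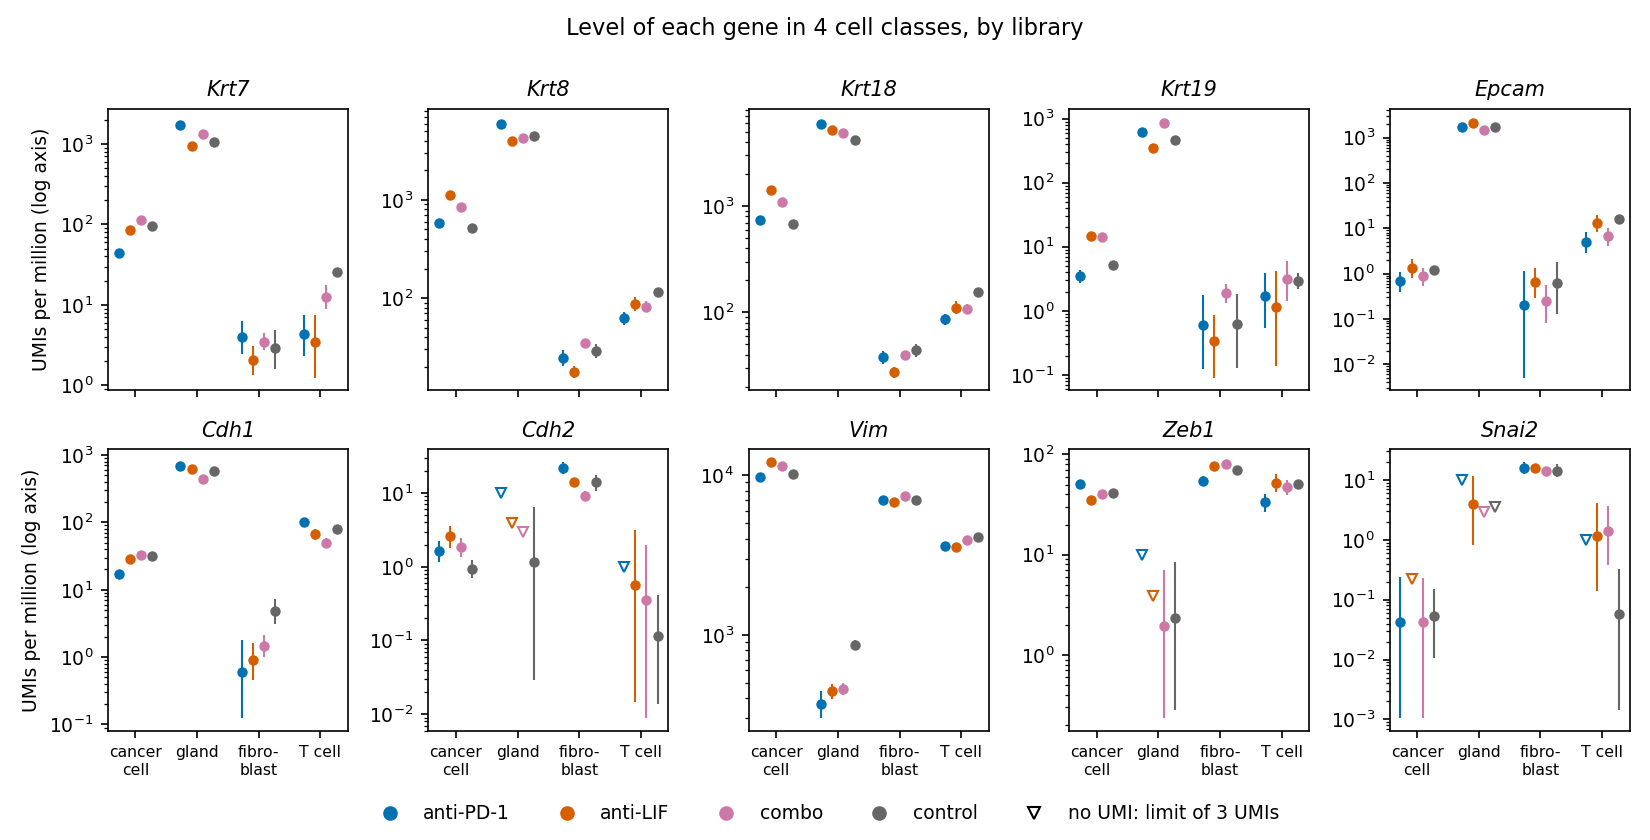
Level of each of the 10 genes in cancer cells, gland epithelium, fibroblasts and T cells (x axis) in CPM on a log axis, 1 point per library with its 95% counting interval, and open triangles at the limit of 3 UMIs where none was found. Cancer cells sit at 675 to 1429 CPM of Krt18 and 9748 to 12027 CPM of Vim, but at 0.675 to 1.34 CPM of Epcam, below the T cells.

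Krt18, a type I keratin of simple epithelia, had 746 CPM under anti-PD-1, 1429 under anti-LIF, 1090 under combo and 675 in control cancer cells. Its partner Krt8 had 582, 1136, 856 and 513 CPM in the same order. T cells had 86.1 to 155 CPM of Krt18 and 62.0 to 117 CPM of Krt8, and fibroblasts 27.3 to 43.9 and 17.8 to 35.0 CPM, so the cancer cells stood above both classes in every library. Gland cells were higher still, with 4197 to 5962 CPM of Krt18 and 4007 to 6012 CPM of Krt8. There were 1.26 to 1.32 Krt18 UMIs per Krt8 UMI in cancer cells, 1.27 to 1.39 in T cells and 0.933 to 1.31 in gland cells, and the ranges of the first 2 classes overlap. The median level of Krt18 was highest in gland cells, then in cancer cells, and neither class overlapped the next one in the order.

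Krt7, a keratin of ducts and other simple epithelia, stood at 43.6 (anti-PD-1), 84.3 (anti-LIF), 114 (combo) and 96.0 CPM (control) in cancer cells, against 3.42 to 25.3 CPM in T cells and 934 to 1737 CPM in gland cells. It was uneven from cell to cell: 10 of 944 anti-LIF cancer cells held 26.9% of its UMIs, and 10 of 4455 control cells 9.27%. With such unlike cell numbers the shares do not compare the libraries. Krt19, the smallest keratin, also typical of ducts, was rare in cancer cells, at 3.46, 14.8, 14.2 and 5.24 CPM, against 1.14 to 3.16 CPM in T cells and 343 to 839 CPM in gland cells. In anti-PD-1 cancer cells the interval of Krt19, 2.75 to 4.29 CPM, overlapped that of the T cells of the same library, 0.544 to 3.91 CPM.

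Epcam had 16 UMIs under anti-PD-1, 18 under anti-LIF, 21 under combo and 68 in control cancer cells, or 0.675, 1.34, 0.879 and 1.19 CPM. This lies below the 5.03 to 15.8 CPM of T cells and far below the 1476 to 2162 CPM of gland cells, so it is not above this background. Across the 11 gated classes, cancer cells ranked 8 for Epcam and 2 for Krt18. The 9 gland markers, which the gates used, together made up 1.96 to 5.19 CPM in cancer cells, against 4335 to 8923 CPM in gland cells. The direction of this contrast was set by the gates. In T cells the same markers made up 8.78 to 41.6 CPM. The cancer gate left out cells that passed the gland gate, and the T cell gate set no limit on gland markers. The lower Epcam of cancer cells than of T cells is therefore not independent of the gates. In the salivary gland gate, which had at least 20 cells in the combo library alone, Epcam reached 114 CPM.

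Cdh1 was low but not at the level of fibroblasts. Cancer cells had 17.2 CPM under anti-PD-1, 28.3 under anti-LIF, 32.4 under combo and 31.8 in control, and fibroblasts had 0.606, 0.918, 1.48 and 4.85 CPM. Gland cells had 445 to 687 CPM, and T cells 48.8 to 103 CPM, more than the cancer cells of any library. In T cells Cdh1 outnumbered Epcam by 306 to 15 UMIs under anti-PD-1 and by 1361 to 274 in control, whereas in gland cells Epcam outnumbered Cdh1 by 515 to 206 and by 1505 to 505. T cells are therefore a poor background for Cdh1, and macrophages, at 14.4 to 24.04 CPM, overlapped the cancer cells.

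Of the mesenchymal members, Vim was at its highest in cancer cells: 9748 CPM under anti-PD-1, 12027 under anti-LIF, 11475 under combo and 10200 in control. Fibroblasts had 6781 to 7357 CPM and did not overlap them. Endothelial cells, at 8895 to 11461.5 CPM, did. Gland cells were the lowest of the 11 classes, at 367 to 859 CPM, below the T cells (3561 to 4089 CPM).

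Zeb1 (chr18:5591860-5775467) stood at 50.9 CPM under anti-PD-1, 35.5 under anti-LIF, 39.9 under combo and 41.4 in control cancer cells. Fibroblasts had more, 54.7 to 80.0 CPM, and endothelial cells most, 92.0 to 109 CPM. T cells, at 33.2 to 51.8 CPM, overlapped the cancer cells, and gland cells held 4 Zeb1 UMIs in all 4 libraries. Zeb1 and Cdh1 RNA were thus both measurable in the cancer cell gate, while gland cells had Cdh1 and all but no Zeb1, and fibroblasts Zeb1 and all but no Cdh1.

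The other mesenchymal members were near 0 in cancer cells. Snai2 had 5 UMIs over all 8170 gated cancer cells, against 627 in 6158 fibroblasts, where its level was 14.3 to 16.0 CPM. Cdh2 (chr18:16588877-16809246) had 1.64 CPM under anti-PD-1, 2.60 under anti-LIF, 1.84 under combo and 0.945 in control cancer cells, against 9.14 to 21.8 CPM in fibroblasts. Pericytes had the highest Cdh2, 30.4 to 34.2 CPM in the pair of libraries with at least 20 such cells. In gland cells a single Cdh2 UMI and 3 Snai2 UMIs were found.

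Counted over the libraries, all 6 epithelial members were lower in cancer cells than in gland cells in every library, as were 15.8% of the 12797 genes with enough UMIs. All 6 were higher in cancer cells than in fibroblasts without overlap, as were 36.5% of 13863 genes, but for Epcam the margin was 0.675 against 0.667 CPM and within counting error. Of the 4 mesenchymal members Vim was the only one higher in cancer cells than in fibroblasts, and Cdh2, Zeb1 and Snai2 were lower, as were 21.9% of genes. Vim and Zeb1 were higher in cancer cells than in gland cells without overlap, as were 20.1% of genes. For Krt7, Krt8, Krt18, Krt19 and Cdh1 the cancer cells thus lay between gland cells and fibroblasts.

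Of 30 further epithelial genes, chosen with earlier results of these data known, 25 were lower in cancer cells than in gland cells in all libraries and 2 were higher. Those 2 were Tjp1, a tight junction scaffold, at 124 to 157 CPM against 56.3 to 87.0 CPM in gland cells, and Krt20, whose 42 UMIs stand against none in a gland class too small to show such a level. The splicing regulator Esrp1 reached at most 0.0875 CPM in cancer cells against 149 to 190 CPM in gland cells, and the epithelial transcription factor Grhl2 at most 0.0742 against 22.0 to 54.4 CPM. The desmosome protein Dsp reached at most 0.223 CPM against 116 to 182 CPM. Other junction genes were present: Jup (plakoglobin) at 87.3 to 194 CPM, F11r (a tight junction adhesion molecule) at 105 to 125 CPM, and the laminin receptor Itgb4 at 33.5 to 81.1 CPM, which overlapped the 34.8 to 57.3 CPM of gland cells. Against fibroblasts 16 of the 30 were higher and 1 was lower. Of all genes with enough UMIs, 15.8% were lower and 20.1% higher than in gland cells, and 36.5% higher and 21.9% lower than in fibroblasts.

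Of 30 mesenchymal genes, 18 were higher in cancer cells than in gland cells and none was lower, while against fibroblasts 5 (16.7%) were higher and 18 (60.0%) lower in all libraries. The shares over all genes were 20.1% higher and 15.8% lower against gland cells, and 36.5% higher and 21.9% lower against fibroblasts. S100a4, a calcium-binding protein, had 746 to 1104 CPM in cancer cells against 203 to 235 CPM in fibroblasts, and Acta2 (smooth muscle actin) 905 to 1694 against 402 to 838 CPM. The factors Snai1 (57.2 to 111 CPM) and Zeb2 (63.5 to 89.2 CPM) overlapped the fibroblasts, at 39.2 to 77.7 and 65.0 to 86.4 CPM. Twist2, Prrx1 and Cdh11, in contrast, stayed at or below 0.742, 1.56 and 2.30 CPM in cancer cells, and had at least 28.9, 283 and 500 CPM in fibroblasts. Collagen RNA was also present: cancer cells had 2471, 805, 782 and 1719 CPM of Col1a1 in anti-PD-1, anti-LIF, combo and control, against 608, 450, 565 and 392 CPM in T cells. They had 36.3 to 131 CPM of Col1a2 and 103 to 151 CPM of Col3a1, near the levels of T cells (72.8 to 284 and 87.8 to 267 CPM), although low Col3a1 was part of the cancer cell gate.

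Joint detection was then read cell by cell. Each cell was thinned to 1000 UMIs, which left out 35 anti-PD-1, 31 anti-LIF, 9 combo and 134 control cancer cells with fewer. At this depth 99.3% to 99.8% of cancer cells had a Vim UMI in every library. Krt18 was detected in 40.2% of anti-PD-1, 66.6% of anti-LIF, 57.4% of combo and 38.7% of control cancer cells, and in 80.5%, 94.0%, 97.7% and 81.7% without thinning. In T cells thinned alike (median UMI counts before the depth limit of 1174 to 1582, against 10496.5 to 17596 in cancer cells) the share with Krt18 was 3.46% to 5.83%, and in fibroblasts 3.02% to 4.71%. Both genes were found in 40.0% (95% Clopper-Pearson interval 37.5 to 42.4) of anti-PD-1, 66.4% (63.2 to 69.4) of anti-LIF, 57.4% (54.5 to 60.3) of combo and 38.5% (37.0 to 40.0) of control cancer cells. The products of the single shares were 40.0%, 66.2%, 57.3% and 38.5%. With Vim in nearly every cell, the joint share follows the Krt18 share whatever the relation of the genes.

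**Figure D2:**
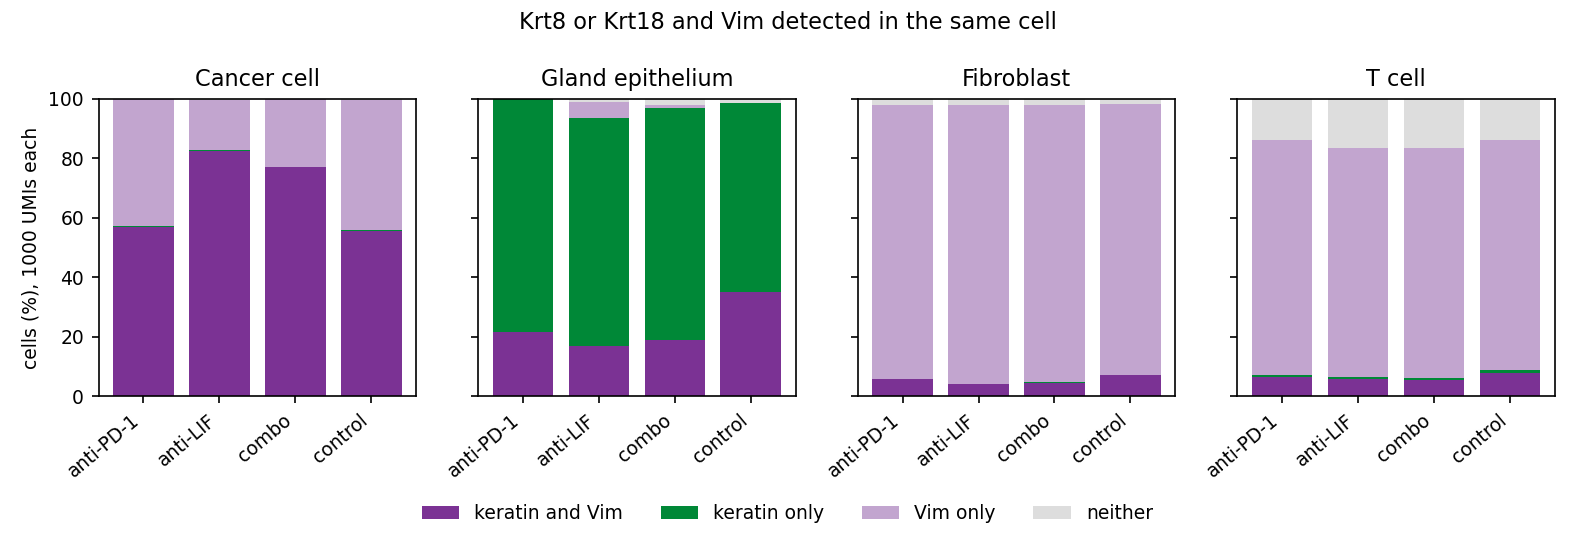
Share of cells, each thinned to 1000 UMIs, with a UMI of Krt8 or Krt18 and of Vim (stacked bars, percent of cells) in 4 cell classes and 4 libraries. Cells with both kinds of RNA make up 56.9% (anti-PD-1), 82.5% (anti-LIF), 77.0% (combo) and 55.4% (control) of cancer cells, whereas 63.8% to 78.3% of gland cells show keratin alone and 91.0% to 93.7% of fibroblasts Vim alone.

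Taking Krt8 and Krt18 as one keratin signal, 56.9% of anti-PD-1, 82.5% of anti-LIF, 77.0% of combo and 55.4% of control cancer cells had keratin and Vim at 1000 UMIs, and at most 0.509% had keratin without Vim. In gland cells it was the reverse: 78.3%, 76.6%, 77.9% and 63.8% had keratin alone and 21.7%, 16.8%, 18.9% and 35.0% had both. In fibroblasts 4.13% to 7.29% had both, and in T cells 5.43% to 7.73%, so the joint state of fibroblasts was at the background. Doublets were not called, and gated cancer cells had few UMIs of other lineages by construction. Without cells that held any leukocyte-marker UMI the share of cancer cells with Krt18 and Vim was 31.3% under anti-PD-1, 63.7% under anti-LIF, 61.7% under combo and 38.3% in control.

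The keratin pair was found together more often than its single shares multiply to. Krt8 and Krt18 shared 18.4% (16.5 to 20.4) of anti-PD-1, 43.5% (40.2 to 46.8) of anti-LIF, 33.4% (30.7 to 36.2) of combo and 17.4% (16.3 to 18.5) of control cancer cells, against products of 14.3%, 39.8%, 30.5% and 13.4%. The product lay below the interval in all 4 libraries.

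Cdh1 and its known repressor Zeb1 were too rare for 1000 UMIs and were read in cells thinned to 5000. Cdh1 was detected in 8.74% of anti-PD-1, 13.0% of anti-LIF, 15.4% of combo and 13.9% of control cancer cells, and Zeb1 in 21.5%, 18.6%, 17.0% and 18.6%. Both were found in 1.38% (0.804 to 2.19), 1.88% (1.00 to 3.19), 2.22% (1.41 to 3.31) and 2.42% (1.95 to 2.97) of cells, against products of 1.88%, 2.42%, 2.62% and 2.59%. The joint share was below the product in each library, but every interval held the product, so exclusion of Cdh1 and Zeb1 RNA from the same cell was not detectable at this depth. T cells of that depth were few, 31 to 650 per library, and 19.4% to 31.2% of them had a Krt18 UMI, against 76.9% to 95.1% of cancer cells.

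Cells with Krt7 also held more Krt8 and Krt18. Among cancer cells thinned to 5000 UMIs, anti-PD-1 cells with a Krt7 UMI (138) carried 6.91 Krt18 and 5.31 Krt8 UMIs on average, and those without (1097) carried 3.00 and 2.44. The same order held for Krt18 under anti-LIF (8.67 and 6.32) and combo (6.45 and 4.77). In control the 788 cells with Krt7 carried 6.17 Krt18 and 4.38 Krt8 UMIs, and the 2884 without it carried 2.46 and 1.96. Cdh1 had 0.217 UMIs per cell with Krt7 against 0.0912 without it under anti-PD-1, 0.161 against 0.156 under anti-LIF, 0.230 against 0.174 under combo and 0.289 against 0.137 in control. The intervals of the share of cells with Cdh1 were apart in anti-PD-1 and control and overlapped in the others. Zeb1 had 0.188 UMIs per cell with Krt7 against 0.253 without it under anti-PD-1, and 0.185 against 0.220 in control. The intervals of the share of cells with Zeb1 overlapped in all 4 libraries, so no difference was detectable at this depth.

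Gated cancer cells also varied in their UMIs of fibroblast markers. They were split at 30 UMIs of the 10 fibroblast markers per 10000, a value set after the markers were seen. Cells above it made up 59.1% of anti-PD-1, 24.9% of anti-LIF, 24.03% of combo and 44.5% of control cancer cells. In each library they had less keratin than the others. Krt7 had 10.7 CPM in cells with more fibroblast-marker UMIs against 80.9 CPM in those with fewer under anti-PD-1, 27.6 against 97.2 under anti-LIF, 43.9 against 129 under combo and 15.5 against 149 in control. Krt18 was 458 against 1072 CPM under anti-PD-1, 927 against 1544 under anti-LIF, 763 against 1157 under combo and 357 against 886 in control. Zeb1 went the other way, with 58.6 against 42.3 CPM under anti-PD-1, 50.4 against 32.1 under anti-LIF and 59.9 against 35.8 under combo, but 43.3 against 40.1 CPM in control, where the intervals overlap. Cdh1 was lower in cells with more of these markers under anti-PD-1 (14.4 against 20.4 CPM) and control (23.8 against 37.2), and its intervals overlapped under anti-LIF and combo.

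**Figure D3:**
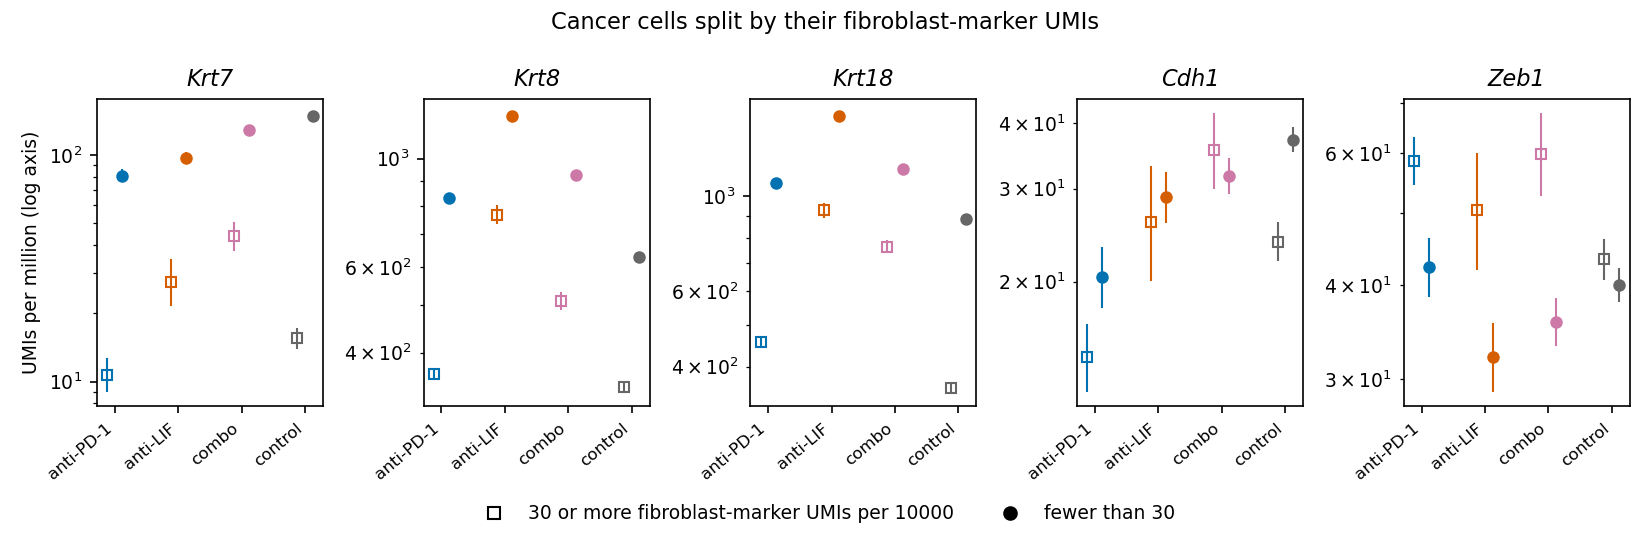
Level of Krt7, Krt8, Krt18, Cdh1 and Zeb1 in CPM (log axes of different range) in cancer cells with 30 or more (open squares) and fewer (filled circles) fibroblast-marker UMIs per 10000, by library, with 95% counting intervals. The 3 keratins are lower in the squares of all 4 libraries, and Zeb1 is higher, with overlapping intervals in control.

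RNA of fibroblast markers was followed along the same split. Col1a1, Col1a2 and Col3a1 are among the 10 markers that set the split and the fibroblast gate. The order of the marker sum was therefore fixed by the split, and the collagens are no independent reading. Xist was not part of it. Col1a1 was 2551 to 3762 CPM in the cells with more fibroblast-marker UMIs against 343 to 1010 CPM in those with fewer. Xist was 1.27 to 3.20 against 1.44 to 2.22 CPM, where fibroblasts had 106 to 150 CPM. Col1a2 was 58.9 to 214 against 21.4 to 71.5 CPM, and Col3a1 186 to 320 against 48.8 to 113 CPM, where fibroblasts had 30881 to 35830 CPM of each. The 10 fibroblast markers summed to 5199 to 6520 CPM against 1101 to 1379 CPM, with all 10 detected on either side except under anti-LIF, where 9 were found in the cells with more. The fibroblast sum was 120503 to 135557 CPM. In control cancer cells the markers did not stand in the proportions of control fibroblasts. Dcn was 578 CPM in these cancer cells against 4816 CPM in fibroblasts, and Col1a1 1719 against 48697 CPM. Col1a2 was 36.3 against 31560 CPM, and Col3a1, limited by the cancer gate, 103 against 31202 CPM. Whether cancer cells made these RNAs was not tested, nor was the part of host fibroblast RNA in the keratin difference.

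The treated libraries were then set against control. Ratios are log2 of CPM with 0.5 counts added to each sum, with exact conditional 95% intervals for counting error. A gene with at least 50 UMIs in both libraries together counted as measured, and 2-fold was the limit for naming a change in size. The median of all measured genes was itself 0.17 under anti-PD-1, 0.19 under anti-LIF and 0.18 in combo cancer cells, so ratios near this value are no shift relative to other genes. Snai2 was not measured in any of these comparisons. Markers of the cancer gate themselves differed between libraries. Ereg had 330 CPM in control against 47.1 to 93.4 CPM in treated cancer cells, and Prl2c2 18.8 CPM in control against 636 CPM in anti-LIF. How far the gate admitted different cells in each library was not tested.

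**Figure D4:**
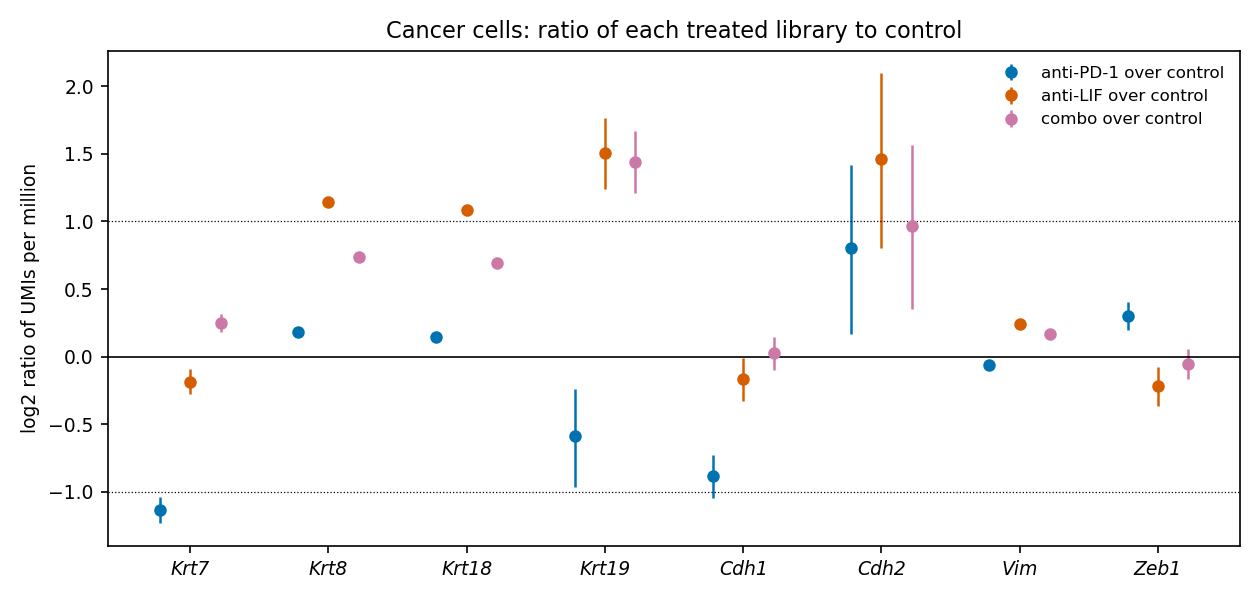
Log2 ratio of CPM in cancer cells of each treated library over control (y axis) for 8 genes (x axis), with 95% counting intervals and dotted lines at 2-fold. Krt8 and Krt18 stand highest under anti-LIF (1.15 and 1.08), then combo (0.74 and 0.69) and lowest under anti-PD-1 (0.18 and 0.14), and Krt7 is lowest under anti-PD-1 at -1.14.

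In anti-LIF cancer cells 4 members were more than 2-fold higher than in control, and none was more than 2-fold lower, against a background of 10.2% of all measured genes higher and 7.87% lower. Krt8 had a log2 ratio of 1.15 (1.12 to 1.18), Krt18 of 1.08 (1.06 to 1.11), Krt19 of 1.50 (1.24 to 1.77) and Cdh2 of 1.47 (0.80 to 2.10). The Cdh2 value rests on 35 UMIs under anti-LIF and 54 in control, with 51.4% of the anti-LIF UMIs in 10 cells. Krt7 (-0.19), Epcam (0.20, interval -0.67 to 0.93, from 18 against 68 UMIs), Cdh1 (-0.17), Vim (0.24) and Zeb1 (-0.22) did not pass 2-fold. Krt7 was past 2-fold lower, at -1.46, in cells with at most 10% mitochondrial UMIs. The median mitochondrial share of gated cancer cells was 12.4% to 13.3% over the libraries, so this setting left out most of them. For Krt18, 91.4% of genes had a lower ratio. With the median of all measured genes subtracted, Krt8 stood at 0.95 and Krt18 at 0.89, both under 2-fold. Krt19, at 1.31, and Cdh2, at 1.27, stayed past it.

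Dividing cells were 49.7% of anti-LIF and 17.0% of control cancer cells, beside the shares with more fibroblast-marker UMIs given above. Within strata the Krt18 ratio stayed positive, at 1.09 in cells that were not dividing, 0.79 in dividing cells, 0.80 in cells with fewer and 1.38 in cells with more fibroblast-marker UMIs. It fell just under 2-fold, to 0.98, in cells with at most 10% mitochondrial UMIs, and to 0.95 in a cancer gate without positive markers. Krt8 in cells with fewer fibroblast-marker UMIs had a ratio of 0.96. Krt7 had opposite signs in these strata, -0.62 in cells with fewer and 0.84 in cells with more of the markers.

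In combo cancer cells 1 member, Krt19, was more than 2-fold higher than in control (1.44, interval 1.21 to 1.67) and none was lower, against backgrounds of 7.58% and 7.02%. Krt8 stood at 0.74 (0.71 to 0.77) and Krt18 at 0.69 (0.67 to 0.71), Krt7 at 0.25, Epcam at -0.41 (-1.22 to 0.29) and Cdh1 at 0.02. Krt7 was -0.49 in cells with at most 10% mitochondrial UMIs. Cdh2 stood at 0.97 (0.35 to 1.56), Vim at 0.17 and Zeb1 at -0.05. Dividing cells made up 43.8% of combo cancer cells, and the Krt18 ratio was 0.77 in cells that were not dividing, 0.37 in dividing cells, 0.38 in cells with fewer and 1.10 in cells with more fibroblast-marker UMIs. Krt7 again had opposite signs, -0.22 in cells with fewer and 1.50 in cells with more of the markers. By division, Krt7 was 0.37 in cells that were not dividing and -0.31 in dividing cells. Cdh1, at 0.02 in all combo cancer cells, also had opposite signs within strata. It was 0.51 in cells that were not dividing and -0.50 in dividing cells, and -0.23 in cells with fewer and 0.58 in cells with more of the markers.

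In anti-PD-1 cancer cells Krt7 was more than 2-fold lower than in control, at -1.14 (-1.23 to -1.04), and no member was more than 2-fold higher, against backgrounds of 3.11% lower and 4.73% higher. Cdh1 came next at -0.89 (-1.05 to -0.73) and Krt19 at -0.59 (-0.97 to -0.24), whereas Krt8 (0.18) and Krt18 (0.14) lay at the median of all genes. Zeb1 stood at 0.30 (0.20 to 0.40), Cdh2 at 0.80 (0.17 to 1.42), Epcam at -0.79 (-1.70 to -0.02, from 16 against 68 UMIs) and Vim at -0.07. Krt7 was lower than in control within both strata, by a log2 ratio of -0.88 in cells with fewer and -0.53 in cells with more fibroblast-marker UMIs, and the larger share of the second kind under anti-PD-1 stands beside the overall value. In dividing cells the Krt7 ratio was -1.20 and in the others -1.31.

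The combo library was also set against each single antibody. Against anti-PD-1, combo cancer cells had more Krt7 (log2 ratio 1.39, interval 1.28 to 1.49) and Krt19 (2.03, 1.69 to 2.40), 2 members past 2-fold against a background of 1.66% higher and 4.24% lower, with Cdh1 at 0.91, Krt8 at 0.56, Krt18 at 0.55, Vim at 0.24, Cdh2 at 0.16 and Zeb1 at -0.35. Against anti-LIF no measured member passed 2-fold, where 1.00% of genes were higher and 1.63% lower. Krt8 stood at -0.41, Krt18 at -0.39, Krt7 at 0.44, Krt19 at -0.07, Cdh1 at 0.19, Cdh2 at -0.50, Vim at -0.07 and Zeb1 at 0.17. Epcam was not measured in either comparison. These comparisons share libraries with those against control, so they are not independent of them.

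Of the epithelial list in cancer cells, 17 of 30 genes were measured under anti-LIF, with 6 more than 2-fold higher, 4 lower and a median of 0.07. Of all measured genes 10.2% were higher and 7.87% lower there, 4.73% and 3.11% with anti-PD-1, and 7.58% and 7.02% with combo treatment, which holds for both lists. In anti-PD-1 18 were measured, with 1 higher, 4 lower and a median of -0.15, and under combo 18, with 3 higher, 3 lower and a median of 0.24. Jup was higher under anti-PD-1 (187 against 87.3 CPM in control, 1.10) and anti-LIF (194 CPM, 1.15). The laminin receptor subunit Itga6 was higher under anti-LIF (60.9 against 23.3 CPM in control, 1.38) and combo (54.6 CPM, 1.23), and its partner Itgb4 under anti-LIF (81.1 against 33.5 CPM, 1.28). The desmosome gene Pkp2 stood at 1.37 under anti-LIF and 1.34 under combo, and Ocln, a tight junction protein, at 2.09 under combo (5.23 against 1.23 CPM).

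Ovol1, a transcription factor of epithelia, had 0.0422 CPM with anti-PD-1, 0.0742 CPM with anti-LIF and 0.209 CPM with combo treatment, against 4.43 CPM in control cancer cells. Its log2 ratios were -6.13 (-12.02 to -4.22), -5.32 (-11.21 to -3.41) and -4.27 (-6.04 to -3.16), with 1, 1 and 5 UMIs behind the treated values. Grhl1 and Lsr, a factor and a junction protein of epithelia, were also more than 2-fold lower in all 3 treated libraries, at -1.64 and -1.36 under anti-PD-1, -1.94 and -1.09 under anti-LIF and -1.36 and -1.02 under combo. The protease inhibitor Spint2 was lower under anti-PD-1 (27.2 against 55.9 CPM, -1.04), and Perp, a desmosome-linked protein, under anti-LIF (1.63 against 4.59 CPM, -1.46). The members and these list genes share the same control library.

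Of the mesenchymal list 27 genes were measured in each comparison with control. In anti-PD-1 4 were more than 2-fold higher and none lower, with a median of 0.51, against 0.17 for all genes. They were the actin-binding Tagln (69.2 against 28.7 CPM, 1.27), the protease Mmp2 (18.7 against 4.60 CPM, 2.02), the collagen cross-linking enzyme Loxl2 (1.73) and the transcription factor Prrx1 (1.17, from 58 UMIs in both). Fibroblasts had 275 to 517, 702 to 936, 459 to 757 and 283 to 372 CPM of these genes. Col1a2 was 131 CPM in anti-PD-1 against 36.3 CPM in control cancer cells, Col3a1 143 against 103 and Col1a1 2471 against 1719 CPM, and the part of fibroblast RNA in these differences was not tested. In anti-LIF 6 were higher and 3 lower, with a median of 0.03. The intermediate filament gene Nes was higher (114 against 52.1 CPM, 1.13), as were Lox (1.21), Tgfbi (1.33) and Loxl2 (1.47). The transcription factor Foxc2 (57.6 against 163 CPM, -1.50) and the adhesion molecule Ncam1 (-1.86) were among the lower ones.

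In combo 5 were higher and 4 lower, with a median of -0.04. Foxc2 (-1.46) and Ncam1 (-1.01) were again lower, and Twist1, a factor linked to epithelial-mesenchymal transition, was at 2.80 against 21.8 CPM (-2.95). Nes (1.50), Tgfbi (1.50), Loxl2 (1.37) and the cadherin Cdh11 (1.52, from 66 UMIs in both) were higher. Twist1 was also lower under combo than under anti-LIF (2.80 against 20.9 CPM, -2.89). Against anti-PD-1, combo had lower Tagln (-1.96), Ncam1 (-1.59) and the growth factor receptor Pdgfrb (-1.50), and higher Ocln (2.23) and Spint2 (1.10). Against anti-LIF the desmosome gene Pkp1 was lower (-1.71) and Perp higher (1.08).

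Gland cells and fibroblasts were compared in the same way. In the gland gate Vim had 367 CPM under anti-PD-1, 444 under anti-LIF and 459 under combo against 859 in control, or log2 ratios of -1.22 (-1.53 to -0.94), -0.95 and -0.90. The first was the only gland value of a member past 2-fold, against a background of 5.90% higher and 4.66% lower in that comparison, with 5.09% and 2.39% under anti-LIF and 4.70% and 3.04% under combo. It rests on 110 UMIs in 51 cells against 740 in 85, with 86.8% of the control UMIs in 10 cells, and it was -0.00 in cells with at most 10% mitochondrial UMIs. In such cells the anti-LIF ratio changed direction, to 2.24, and the combo ratio was -0.89. The median mitochondrial share of gland cells was 9.36% in anti-PD-1, 12.3% in anti-LIF, 11.9% in combo and 12.3% in control. The setting thus left out most gland cells of all libraries but anti-PD-1. Dcn, a fibroblast marker, was 53.4, 104 and 61.2 CPM in treated and 544 CPM in control gland cells. The collagen markers went the other way. Col1a1 was 171 to 277 CPM in treated against 123 CPM in control gland cells. Col1a2 was 73.4 to 159 against 16.2 CPM, and Col3a1 43.4 to 232 against 27.9 CPM. Control cancer cells had 578 CPM of Dcn. Ereg, a cancer gate marker, was 1.30 to 16.7 CPM in treated and 54.5 CPM in control gland cells. The part of RNA from other cells in the Vim difference was not tested. Epcam in gland cells stood at -0.02, 0.31 and -0.24 against control, Cdh1 at 0.23, 0.07 and -0.40, and Krt18 at 0.51, 0.32 and 0.21.

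In fibroblasts Vim stood close to control, at -0.00 under anti-PD-1, -0.04 under anti-LIF and 0.08 under combo, and Snai2 stood at 0.15, 0.14 and -0.01. Zeb1 was -0.34 (-0.58 to -0.11), 0.15 and 0.20, and Cdh2 was 0.64 (0.19 to 1.11), -0.00 and -0.61 (-1.02 to -0.18). No measured member passed 2-fold under anti-PD-1 (3.03% of genes higher, 2.20% lower) or anti-LIF (3.38% and 1.84%). In combo 1 did, Cdh1, at -1.72 from 30 against 23 UMIs (3.01% and 2.21%), and it was -0.13 when each cell counted equally. Keratin levels in fibroblasts were below those of T cells, so their ratios are not described.

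Other genes followed 4 of the members over 35 points of class and library, in which points of 1 library share free RNA and depth. Of 12053 genes searched, those most like Krt18 were Celsr2 (Pearson r 0.95), Wfdc2 (0.93) and Tmem79 (0.92). Wfdc2, a secreted protein of epithelia, had 57.6 to 113 CPM in cancer cells and 301 to 1434 CPM in gland cells. Epcam was followed by Cldn3 (0.95), Fxyd3 (0.94) and Wfdc18 (0.94), of which Cldn3, a claudin, and Wfdc18 were gland gate markers. Fxyd3, a regulator of the sodium pump, was at most 1.65 CPM in cancer cells and 610 to 1106 CPM in gland cells. Cdh2 was followed by Gpr176 (0.93), Kcne4 (0.92) and Tbx5 (0.92), each at most 0.223 CPM in cancer cells and at least 11.1 CPM in fibroblasts. Vim was followed by Nrp1 (0.93), 4930503L19Rik (0.91) and Fam126a (0.85). Nrp1, a co-receptor for semaphorins and VEGF, had 141 to 237 CPM in cancer cells, 59.6 to 84.1 CPM in fibroblasts and 5.83 to 19.7 CPM in gland cells.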

How the data were processed

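The deposited matrices hold UMI counts per gene and barcode, not normalized; the other deposited files list barcodes, Ensembl identifiers and symbols. The submitters' processing notes name mm10 and Seurat 4.0.3 without a role, and the aligner, the counter and its use of strand are not given in the sources used here. The labels name a pair of sequencers without saying which library used which. Krt8 overlaps the annotated antisense gene Gm36026 at its start, so reads from that stretch cannot be told apart, and near-identical copies of keratin genes could share reads.

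A barcode was kept if it had 200 genes or more and no more than 20% of its UMIs from mitochondrial genes. A class needed at least 3 UMIs from at least 2 of its markers. Cancer cells, gland cells and fibroblasts had under 10 UMIs of other host lineages per 10000. Cancer cells (8 markers: Ereg, Ptn, Enpp2, Lif, Il11, Prl2c2, Prl2c3, Msln) had under 200 fibroblast-marker and under 20 Col3a1 UMIs per 10000. Not all of these markers were particular to cancer cells. Ptn had 747 CPM in gland and 372 CPM in cancer cells of anti-PD-1, and Lif 191 and 50.8 CPM in anti-LIF. In control, cancer cells had more of both (Ptn 310 against 182 CPM, Lif 250 against 190 CPM). Fibroblasts (10 markers: Pdgfra, Dcn, Lum, Dpt, Col1a1, Col1a2, Col3a1, Col6a3, Pi16, Lrrc15) had at least 400 fibroblast-marker UMIs per 10000. Gland cells (9 markers: Csn3, Wfdc18, Prlr, Ltf, Elf5, Krt14, Krt5, Cldn3, Cldn4) had at least 5 gland-marker UMIs per 10000. T cells and other classes needed 3 times the UMIs of the next list. The cancer gate without positive markers, used only as an alternative, kept the same limits on other host lineages, fibroblast markers and Col3a1. Its cells had no Xist UMI, no gland-marker UMI and at least 2000 UMIs. Thresholds were set, and 9 cancer and 4 gland markers left out, after marker levels were seen. Dividing cells had at least 3 UMIs, and 5 per 10000, of 8 cell cycle genes. The members and lists were chosen with earlier results of these data known. All 10 members were named, with up to 4 list genes per direction past 2-fold with the most UMIs, in each cancer cell comparison, and the 3 genes most correlated with each of Krt18, Epcam, Cdh2 and Vim; other list genes in the class comparison were picked after their values were seen. Of the list genes this rule names, 1 is not reported here.

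UMIs were summed per class and library. No test was possible with 1 library a group. Doublets were not called. Intervals (95%; python 3.11.15, scipy 1.17.1, numpy 2.4.6) cover counting error only. The ratio step was tested on simulated data.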

Additional observations from a re-analysis of the deposited data

Results flagged for a closer look

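Members whose ratio to control had opposite signs in cancer cells and gland cells of the same library, both beyond counting error and past 2-fold in at least 1 of them, were singled out. The difference between the 2 classes was not tested, since each rests on 1 library a group. Krt7 in anti-PD-1 was lower than in control in cancer cells (log2 ratio -1.14) and higher in gland cells (0.73). Krt8 in anti-LIF was higher in cancer cells (1.15) and lower in gland cells (-0.17). Krt19 in anti-LIF was higher in cancer cells (1.50) and lower in gland cells (-0.43). The gland values come from 51 anti-PD-1, 132 anti-LIF and 85 control cells. In anti-PD-1 gland cells, 10 cells held 66.0% of the Krt7 UMIs. The 9 gland markers summed to 4335 CPM in control gland cells, against 7566 to 8923 CPM in treated ones. Xist was 135 CPM in control gland cells against 208 to 253 CPM in treated ones. How far the gland gate of control held RNA of other cells was not tested, so the gland ratios carry this limit too.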

How the results depend on the processing

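No paired analysis was possible because each group has 1 library. No cancer cell difference past 2-fold changed sign under an alternative, but Krt7 of combo over control (0.25) was -0.22 in cells with few fibroblast-marker UMIs and -0.49 with at most 10% mitochondrial UMIs. That last setting took Krt7 of anti-LIF to -1.46 and gland Vim of anti-LIF (-0.95) to 2.24. The Krt18 log2 ratio of anti-PD-1 over control cancer cells (0.14) was 0.24 with 6 marker UMIs required, 0.045 with at most 10% mitochondrial UMIs, 0.064 as a mean over cells, 0.11 without dividing cells and 0.27 in cells with few fibroblast-marker UMIs. That of anti-LIF (1.08) was 1.195, 0.98 and 0.80 under the first, second and last of these, 1.05 with no mitochondrial limit and 0.95 with a gate without positive markers. That of combo (0.69) was 0.79, 0.89, 0.77, 0.77 and 0.38 under the 5 settings given for anti-PD-1, 0.67 with no mitochondrial limit and 0.58 without positive markers. The share of cancer cells with Krt18 and Vim rests on depth: at 2000 UMIs it was 57.1% in anti-PD-1, 81.7% in anti-LIF, 80.2% in combo and 56.7% in control, and without thinning 80.4%, 94.0%, 97.7% and 81.6%. For anti-PD-1 (40.0%) it was 43.7% with at most 10% mitochondrial UMIs, 31.3% without cells holding a leukocyte-marker UMI and 43.2% without positive markers. For combo (57.4%) it was 61.7% without leukocyte-marker cells. For control (38.5%) it was 36.5% with 6 marker UMIs and 41.4% without positive markers. The cause was not tested. Among differences past 2-fold, Krt7 in anti-PD-1 ranged from -1.49 to -0.88, Krt19 from 1.11 to 1.54 in anti-LIF and 1.04 to 1.88 in combo, and Krt8 in anti-LIF from 0.91 to 1.23. The settings without dividing cells, with few fibroblast-marker UMIs and without positive markers were chosen after the data were seen. Rare members (Epcam, Snai2, Cdh2) are limited by depth.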
